A study of Drosophila melanogaster with 8 samples.

Results

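The stretch described here is the first 1500 kb of chromosome arm 3R in Drosophila melanogaster genome build dm3, where position 1 is the end of the assembled arm that faces the centromere. It comprises all 1500 windows of 1 kb on 3R with a start under 1500000, out of 168744 windows listed for every library. The windows were chosen by position alone. Of the 1500 windows, 1425 (95%) had a mean input of at least 2 RPKM (the read count scaled by window length and by the total of the library) and were analysed further, against 117126 windows (69.4%) in the whole series.

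The data are 8 sequencing libraries from ovaries of flies that carried the MTgal4 driver with a short hairpin RNA. The hairpin was shSov, named for the gene Sov, or shW, taken as the control. Each genotype had 2 chromatin immunoprecipitation (ChIP) libraries for histone H3 trimethylated at lysine 9 (H3K9me3), and 2 input libraries of the lysate without immunoprecipitation. MTgal4 drives expression in germ cells, and whole ovaries also hold somatic follicle cells, so that a loss of the mark in some cells and a partial loss in all cells cannot be told apart. The level of Sov was not analysed here.

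H3K9me3 marks constitutive heterochromatin, the compact and repeat-rich DNA that surrounds centromeres. In flies the mark is laid down by methyltransferases such as Su(var)3-9 and Eggless and is bound by HP1a, which helps to spread it from nucleosome to nucleosome, and Sov is a zinc-finger protein that associates with HP1a. Pericentric heterochromatin gives way to gene-rich euchromatin along each arm, and the place where the mark drops is called the euchromatin boundary. In dm3 heterochromatic sequence assigned to 3R is also held by a separate scaffold, 3RHet.

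The label pericentric region fits the first 42 kb of this stretch better than the remainder. Enrichment was the log2 ratio of ChIP to input RPKM in a window, with 1 added to both, and each ChIP library was paired with the input of its genotype and replicate number. It averaged -0.16 and -0.18 over the 1425 windows in the shSov libraries, against -0.26 and -0.25 in the shW libraries. A negative mean says that the typical window held less of the ChIP than of the input. Counting a window as enriched where log2 enrichment was at least 1 in both replicates of a genotype, 32 windows (2.25%) were enriched in shSov and 55 (3.86%) in shW. The same rule marked 5.8% of all tested windows of the genome in shSov and 7.23% in shW. The stretch thus held a smaller share of enriched windows than the genome at large in both genotypes. Its share was larger than that of the rest of 3R, where the rule marked 0.301% of windows in shSov and 0.926% in shW. Of the 55 windows enriched in shW, 29 were also enriched in shSov and 26 were not, and 3 windows were enriched in shSov alone. Over all tested windows of the genome, 1969 of the 8474 windows enriched in shW were not enriched in shSov. On the rest of 3R this held for 173 of 237.

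The centromere-facing ends of 2L and 3L gave the contrast. Over the last 1500 kb of 2L, where 1172 windows were tested, mean enrichment was 0.93 and 0.94 in shSov, against 1.26 and 1.08 in shW. For 3L, with 899 tested windows, it was 1.83 and 1.82 in shSov, against 2.18 and 2.08 in shW. On 2L 508 windows (43.3%) were enriched in shSov and 569 (48.5%) in shW, and on 3L 781 (86.9%) were enriched in shSov and 831 (92.4%) in shW. The 607 tested windows of the 3RHet scaffold averaged 1.75 and 1.76 in shSov, against 2.07 and 2.06 in shW, close to the 3L values. The start of the 3R arm was thus low in each of the 4 libraries, where 2L, 3L and 3RHet were high. Its level lay above that of the other 25594 tested windows of 3R, which averaged -0.30 and -0.35 in shSov, against -0.63 and -0.45 in shW.

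**Figure D1:**
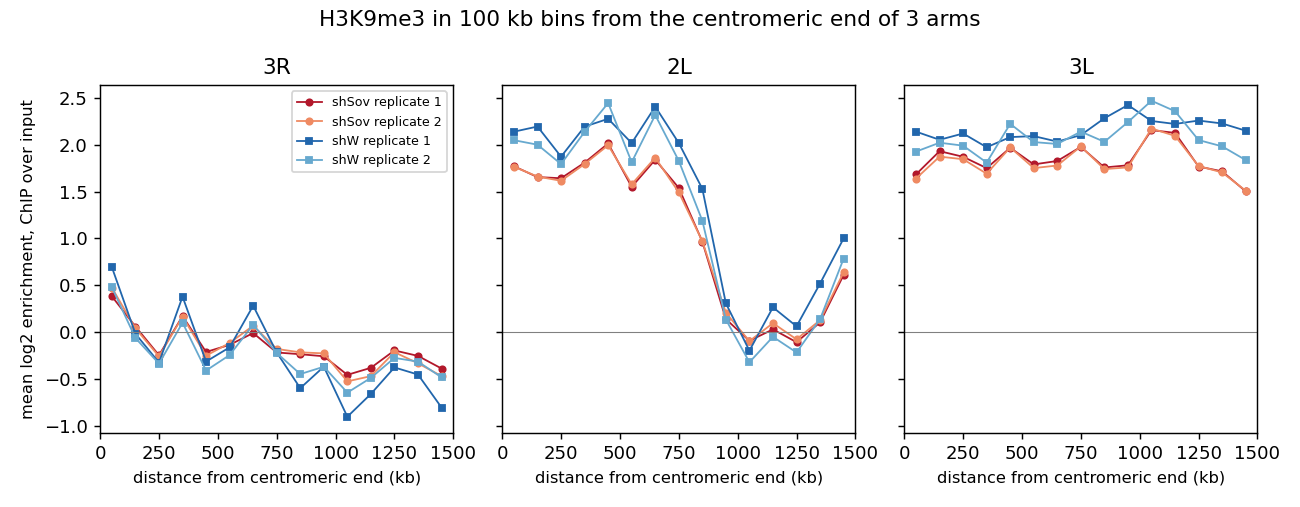
Mean log2 H3K9me3 enrichment in 100 kb bins (vertical axis) against distance in kb from the centromeric end of 3R, 2L and 3L (horizontal axis), with circles in red and orange for the 2 shSov libraries and squares in dark and light blue for the 2 shW libraries. Enrichment stays near or above 1.5 for all 15 bins of 3L and for the first 8 bins of 2L, while no 3R bin reaches 1 in any library.

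How far the mark extends was described by the single step that best divides the profile, fitted by least squares to the windows of each library. On 2L the step fell at 859.5 kb from the centromeric end in the mean of the 4 library pairs. The single libraries gave 841.5 and 842.5 kb in shSov, against 860.5 and 859.5 kb in shW. Mean enrichment inside the 2L step was 1.90 and outside it 0.14. The 3L profile showed no comparable drop: its step lay at 1399.6 kb, and the 2 sides of it averaged 2.00 and 1.75. In the shW libraries the inner side of the fitted 3L step was the lower one.

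On 3R the step had no stable place. It fell at 731 kb in both shSov libraries, against 744 and 42 kb in the shW libraries, and at 731 kb in the mean of the 4. The drop was shallow at 731 kb, where the mean profile averaged 0.02 inside and -0.43 outside. At 42 kb it was steep but short, and shW replicate 2 averaged 1.08 inside and -0.28 outside. When the first 1000 kb alone were searched, 3 libraries gave 42 kb and shW replicate 1 gave 46 kb. Without shW replicate 1, the step of the mean moved to 42 kb. The mean step position differed between genotypes (shSov minus shW) by 338 kb, and the exact permutation test, two-sided, gave p = 1. With shW replicate 1 left out the difference was 689 kb, and with shW replicate 2 left out it was -13 kb. No shift of a boundary between genotypes was detectable, and both positions are described below.

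**Figure D2:**
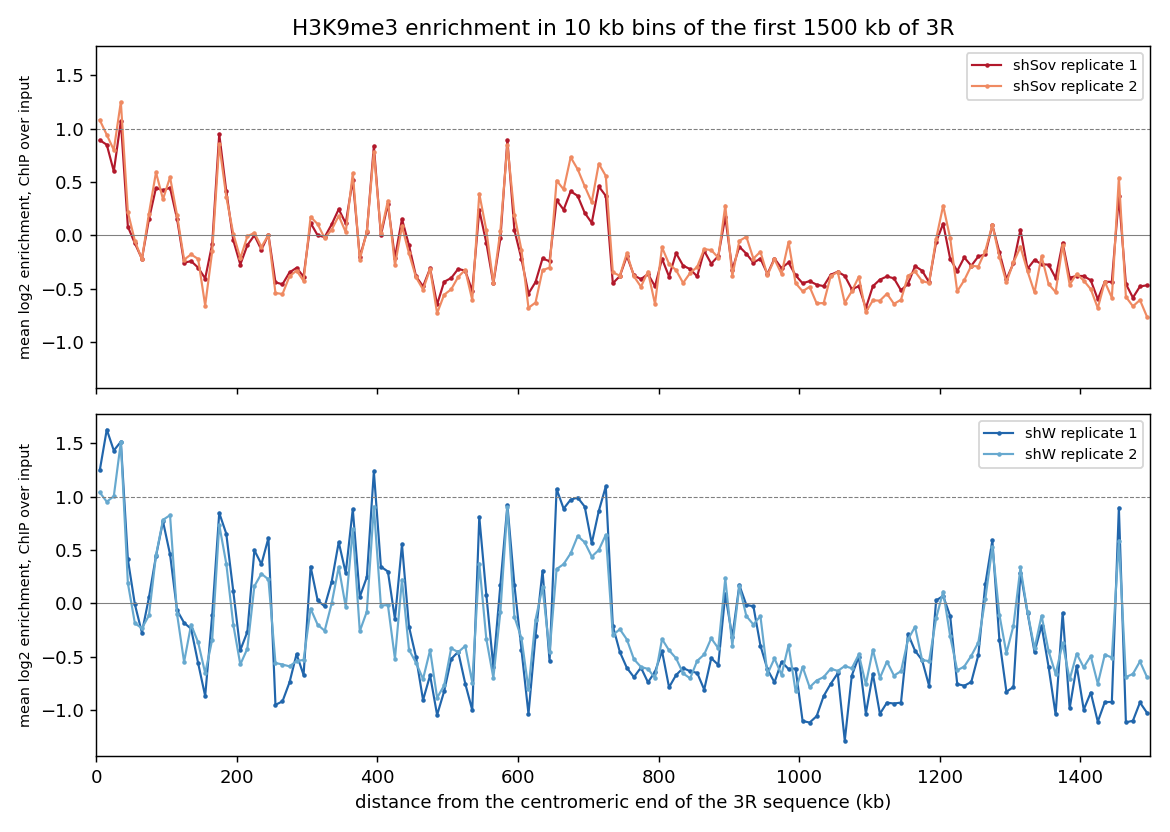
Mean log2 H3K9me3 enrichment of the tested windows in each 10 kb bin (vertical axis) against distance in kb from the centromeric end of the 3R sequence (horizontal axis), for the 2 shSov libraries above and the 2 shW libraries below, with a dashed line at 1. The bin from 30 to 40 kb reaches 1 in every library, isolated peaks follow at 170 to 180 kb, 390 to 400 kb and 580 to 590 kb, and a plateau runs from 650 to 730 kb.

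The first 42 kb carried the strongest and most continuous mark. Their 37 tested windows averaged 0.81 and 0.98 in shSov, against 1.44 and 1.08 in shW. The shSov mean was 0.90 ± 0.12 and the shW mean 1.26 ± 0.26 (SD, n = 2 each). Neither shSov library reached the lower shW library. The difference was -0.36, with p = 0.33 in a two-sided exact permutation test, the smallest that 2 libraries against 2 can give. ChIP values were 19.1 and 22.5 RPKM in shSov, against 31.5 and 24.1 RPKM in shW, and input values were 10.1 and 10.2 RPKM in shSov, against 10.7 and 10.3 RPKM in shW. The difference in enrichment was -0.59 when each library was centred on the distal parts of the autosomal arms, and -0.18 without shW replicate 1. In shSov 13 of the 37 windows (35.1%) were enriched, against 19 (51.4%) in shW, and all 13 were among the 19. The drop itself lay between neighbouring bins. From 30 to 40 kb enrichment was 1.07 and 1.25 in shSov, against 1.52 and 1.51 in shW, and from 40 to 50 kb it was 0.08 and 0.22 in shSov, against 0.41 and 0.19 in shW. The 10 kb from 30 kb hold 5 windows with too little input to be tested.

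From 42 to 731 kb the mark was patchy. The 650 tested windows averaged -0.04 and -0.03 in shSov, against 0.02 and -0.11 in shW, and the genotypes overlapped. In shSov 14 of these windows (2.15%) were enriched and in shW 30 (4.62%), against 0.301% and 0.926% in the rest of 3R. Peaks of similar height in both genotypes stood at 170 to 180 kb, with 0.95 and 0.85 in shSov, against 0.85 and 0.74 in shW, and at 580 to 590 kb, with 0.89 and 0.85 in shSov, against 0.92 and 0.90 in shW. At 390 to 400 kb enrichment was 0.84 and 0.78 in shSov, against 1.24 and 0.91 in shW. The last raised part was a plateau of 8 bins from 650 to 730 kb. Its bins ranged from 0.12 to 0.46 in shSov replicate 1 and from 0.31 to 0.73 in shSov replicate 2, against 0.56 to 1.10 in shW replicate 1 and 0.32 to 0.64 in shW replicate 2. Within it, 7 windows from 713001 to 720000 had too little input to be tested. Over 650 to 700 kb the mean was 0.31 and 0.55 in shSov, against 0.97 and 0.47 in shW, so that shW replicate 2 lay between the shSov libraries. ChIP there was 10.0 and 12.2 RPKM in shSov, against 16.1 and 12.5 RPKM in shW. Input was 7.76 and 7.83 RPKM in shSov, against 7.67 and 8.58 RPKM in shW. From 42 to 731 kb ChIP was 9.94 and 10.3 RPKM in shSov, against 11.7 and 10.1 RPKM in shW. Input was 10.1 RPKM in both shSov libraries, against 10.5 and 10.4 RPKM in shW. In shSov replicate 1 ChIP was thus nearly the same in both, and input was lower on the plateau. The plateau ended sharply. Enrichment at 720 to 730 kb was 0.37 and 0.56 in shSov, against 1.10 and 0.64 in shW, and at 730 to 740 kb it was -0.45 and -0.35 in shSov, against -0.21 and -0.30 in shW.

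Beyond 731 kb the arm resembled the rest of 3R. The 738 tested windows averaged -0.32 and -0.36 in shSov, against -0.60 and -0.44 in shW, with 5 enriched windows (0.678%) in shSov and 6 (0.813%) in shW. The 100 kb just past the end of the stretch, from 1500 to 1600 kb, averaged -0.04 and -0.01 in shSov, against -0.17 and -0.07 in shW, and the last 100 kb inside it averaged -0.39 and -0.47 in shSov, against -0.81 and -0.48 in shW. The level just outside the stretch was thus higher than just inside it in every library.

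Enriched windows were scattered in short runs. Joined over gaps of 1 window, the 55 windows enriched in shW formed 25 runs with a median length of 2 kb. Of these runs 11 were single windows, 12 held 2 to 4 windows, 2 held 5 to 9 and none reached 10. The longest, from 16001 to 22000, held 6 windows and averaged 1.19 and 1.38 in shSov, against 1.98 and 1.58 in shW. The next, from 27001 to 32000, averaged 1.13 and 1.36 in shSov, against 1.58 and 1.61 in shW. Of the other runs that span 5 kb, the one from 176001 to 181000 averaged 1.25 and 1.08 in shSov, against 1.25 and 1.00 in shW, with the genotypes overlapping, and the one from 394001 to 399000 averaged 0.89 and 0.87 in shSov, against 1.34 and 1.13 in shW. Because shW values chose these runs, lower values in shSov are favoured there and no test was made.

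The windows with the highest mean over the 4 library pairs were also isolated, and only 1 of the 5 lay in the first 100 kb. The highest was a single window at 1310001 to 1311000, far out on the arm, with an enrichment of 2.15 and 1.84 in shSov, against 2.87 and 2.37 in shW. Its ChIP values were 40.6 and 33.3 RPKM in shSov, against 95.8 and 66.7 RPKM in shW, and its input values were 8.37 and 8.61 RPKM in shSov, against 12.3 and 12.1 RPKM in shW. Input was thus also lower in shSov at this window. The next, at 638001 to 639000, had 1.40 and 1.35 in shSov, against 2.95 and 1.94 in shW. At 367001 to 368000, 58001 to 59000 and 583001 to 584000 the shSov values ran from 1.45 to 1.73, against 1.53 to 2.37 in shW. None of the 5 passed the test described below, with edgeR adjusted p-values of 0.15 to 0.63.

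Enrichment was higher in windows near those with too little input to be tested, and their input was lower. The 75 windows that failed the input filter formed 17 runs, 10 of them at least 5 kb long, and 48 had no read in any library. How reads that map to several places were treated is not given in the sources used here, and this comparison was chosen after the values were seen. The 99 tested windows within 3 kb of such a window averaged 0.18 and 0.21 in shSov, against 0.36 and 0.25 in shW, while the other 1326 averaged -0.19 and -0.20 in shSov, against -0.31 and -0.29 in shW. In shSov 8.08% of the near windows were enriched and in shW 17.2%, against 1.81% and 2.87% of the others. Leaving out the first 42 kb, the near windows had 4.30% enriched in shSov and 11.8% in shW, and the others 1.16% and 1.93%. The rest of 3R showed the same order at a lower level, with 1.08% of 930 near windows enriched in shSov and 2.69% in shW, against 0.272% and 0.86% of the others.

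The difference between genotypes was followed in 100 kb bins. Enrichment did not fall steadily away from the centromere: bins from 0, 300 and 600 kb were the highest in shW and lower bins lay between them. From 0 to 100 kb it was 0.38 and 0.47 in shSov, against 0.69 and 0.48 in shW. From 300 to 400 kb it was 0.17 and 0.16 in shSov, against 0.38 and 0.10 in shW. From 600 to 700 kb it was -0.01 and 0.07 in shSov, against 0.28 and 0.08 in shW. In these 3 bins the shSov mean lay below the shW mean, by 0.16, 0.07 and 0.15. Without shW replicate 1 these differences were -0.05, 0.07 and -0.05, and after centring on the distal arms they were -0.38, -0.30 and -0.38. In the other 12 bins the shSov mean lay above the shW mean, by 0.02 to 0.30. After centring 10 of the 12 differences were below 0, down to -0.21, and only the bins from 800 and 1000 kb stayed above it, by 0.07 and 0.06. Before centring the widest gap was from 800 to 900 kb, with -0.24 and -0.22 in shSov, against -0.60 and -0.45 in shW, followed by 1000 to 1100 kb with -0.46 and -0.53 in shSov, against -0.91 and -0.65 in shW. The remaining bins lay between these extremes. From 100 to 200 kb enrichment was 0.06 and 0.04 in shSov, against -0.02 and -0.06 in shW. The bin from 200 kb had -0.25 and -0.26 in shSov, against -0.33 and -0.34 in shW. In the bins from 400 and 500 kb the shSov values were again the higher ones. From 400 to 500 kb it was -0.21 and -0.25 in shSov, against -0.32 and -0.41 in shW. The bin from 500 kb had -0.14 and -0.12 in shSov, against -0.16 and -0.25 in shW. The bin from 700 kb joins the outer 30 kb of the plateau to 70 kb beyond it. Its enrichment was -0.22 and -0.18 in shSov, against -0.22 and -0.22 in shW. The bin from 900 kb had -0.26 and -0.23 in shSov, against -0.37 and -0.37 in shW. Past 1100 kb the shSov means lay above the shW means by 0.09 to 0.21 before centring. From 1100 to 1200 kb it was -0.38 and -0.47 in shSov, against -0.66 and -0.49 in shW. From 1200 to 1300 kb it was -0.20 and -0.22 in shSov, against -0.38 and -0.28 in shW, and from 1300 to 1400 kb it was -0.26 and -0.33 in shSov, against -0.45 and -0.32 in shW. The genotypes overlapped in 3 of the 15 bins, those from 300, 700 and 1300 kb. The share of 100 kb bins that overlapped across the genome was not counted. Among the 10 kb bins of the genome, the shSov pair lay wholly below the shW pair in 12.6% and wholly above it in 56.3%.

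**Figure D3:**
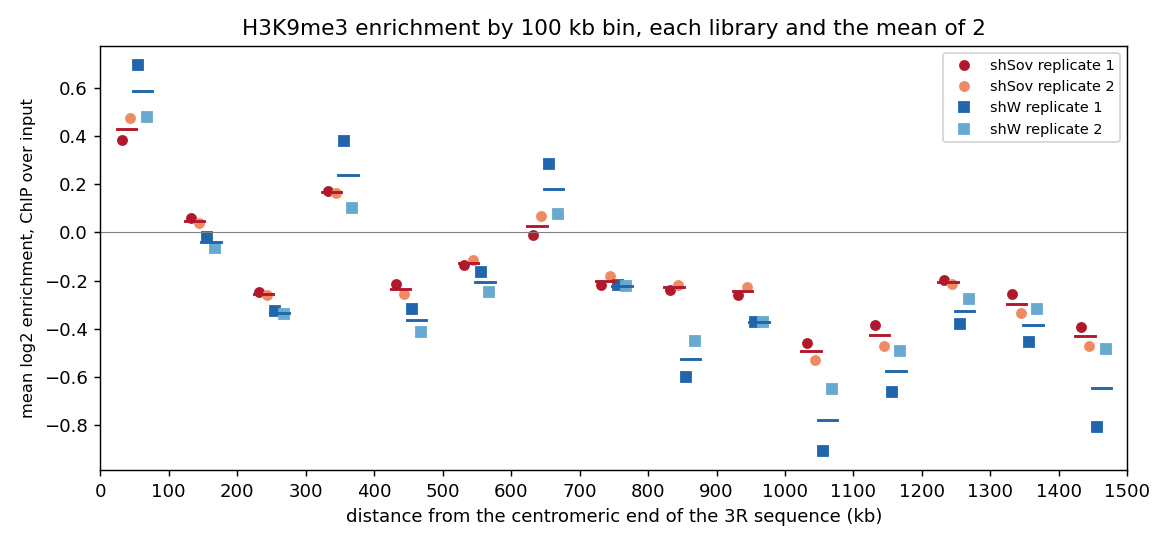
Mean log2 H3K9me3 enrichment (vertical axis) in the 15 bins of 100 kb along the stretch (horizontal axis, distance in kb from the centromeric end), with a point for each library, circles for shSov and squares for shW, and a bar at the mean of each genotype. The shSov points lie closer to 0 than the shW means in most bins, and shW replicate 1 lies outermost in the bins at both extremes.

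No bin of 100 kb in the stretch passed edgeR's test with adjustment across the genome. Summed counts of the tested windows were fitted with edgeR's quasi-likelihood test with genotype, antibody and their interaction, where the interaction is the change in ChIP over input, and Benjamini-Hochberg adjustment ran over all 1246 bins of 100 kb. Across the genome 0.241% of the bins were called lower and 0.0% higher at an adjusted p under 0.05. In the stretch 0 of 15 were called in either direction, and DESeq2 called 1 lower and 0 higher, where it called 10.6% of the genome bins lower and 1.85% higher. At an unadjusted p under 0.05 edgeR had 1 lower and 2 higher, where 5.22% of the genome bins were lower and 22.2% higher. From 0 to 100 kb the log2 change was -0.26 ± 0.14 (SE), with an edgeR adjusted p of 0.198. From 600 to 700 kb it was -0.28 ± 0.12 (SE), with an edgeR adjusted p of 0.175, and from 800 to 900 kb it was 0.34 ± 0.12 (SE), with an edgeR adjusted p of 0.151. Without shW replicate 2 edgeR called 3 bins lower and 3 higher, against 15.2% and 48.9% of the genome bins. Without shW replicate 1 it called 0 lower and 1 higher, against 4.82% and 15.6%. In fits that leave out a shW replicate, each shW group holds 1 library, which is assumed to vary like the shSov libraries.

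At 10 kb the result was alike. In the genome 1.31% of 12263 bins were called lower and 1.2% higher by edgeR at an adjusted p under 0.05, and in the stretch 0 of 150 were called in either direction. At an unadjusted p under 0.05 edgeR had 13 lower and 23 higher, against 5.71% and 19.1% of the genome bins. This balance turned with the scaling, with 24 lower and 3 higher under TMM factors and 23 lower and 7 higher after centring. The genome moved in the same direction, from 700 lower and 2339 higher to 1290 and 1013 under TMM factors and 1095 and 1236 after centring. DESeq2 called 17 lower and 0 higher after adjustment, where it called 6.73% of the genome bins lower and 1.44% higher. By limma 0 were called, against 101 lower and 85 higher among the 12263 genome bins. The bins named next were picked after their values were seen. Closest to the threshold was the bin from 860 to 870 kb, with -0.15 and -0.13 in shSov, against -0.81 and -0.48 in shW (log2 change 0.56 ± 0.15, SE, edgeR adjusted p = 0.055). The bin from 1310 to 1320 kb followed, with 0.05 and -0.11 in shSov, against 0.29 and 0.34 in shW (log2 change -0.65 ± 0.18, SE, edgeR adjusted p = 0.061). The number of calls turned on the shW replicates. Without shW replicate 2, edgeR called 30 bins lower and 45 higher, or 20.0% and 30.0%, against 13.5% and 42.8% of the genome bins. Without shW replicate 1 it called 4 lower and 3 higher, against 3.22% and 4.3%.

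The range of the profile was narrower in shSov. Over the 150 bins of 10 kb the SD of enrichment between bins was 0.35 and 0.42 in the shSov libraries, against 0.67 and 0.48 in the shW libraries. The difference between the genotype means was -0.19, and -0.09 without shW replicate 1. The median bin held 1435.5 and 522.5 ChIP reads in shSov, against 331 and 506.5 in shW, so the widest profile came from the shallowest library and the narrowest from the deepest. After all libraries were thinned to equal depth the SDs were 0.36 and 0.42 in shSov, against 0.67 and 0.48 in shW. The same measure over all 12263 bins of the genome was 0.60 and 0.64 in shSov, against 0.85 and 0.74 in shW, and over the rest of 3R it was 0.20 and 0.26 in shSov, against 0.44 and 0.30 in shW.

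Grouped by the mean level of the 4 library pairs, high bins had lower and low bins higher values in shSov. Of the 17 bins with a level of 0.5 or more, the shSov pair lay wholly below the shW pair in 11 and above them in 1, with a median difference of -0.28. Among bins of this level in the whole genome 61.0% lay below and 4.42% above. Of the 26 bins with a level between 0 and 0.5, 9 lay below and 2 above, with a median difference of -0.14, against 30.7% and 21.7% in the genome. Of the 107 bins with a level under 0, 7 lay below and 67 above, with a median difference of 0.22, against 3.6% and 68.0% in the genome. Over all 150 bins, 27 lay below and 70 above, where the genome had 12.6% and 56.3%. That is 64.7% of the high bins below and 62.6% of the low bins above, near the genome shares at the same level. The sign in the low bins depends on the scale: with the distal arms as zero, the median difference was -0.01 in the low bins, -0.36 in the middle bins and -0.50 in the high bins.

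**Figure D4:**
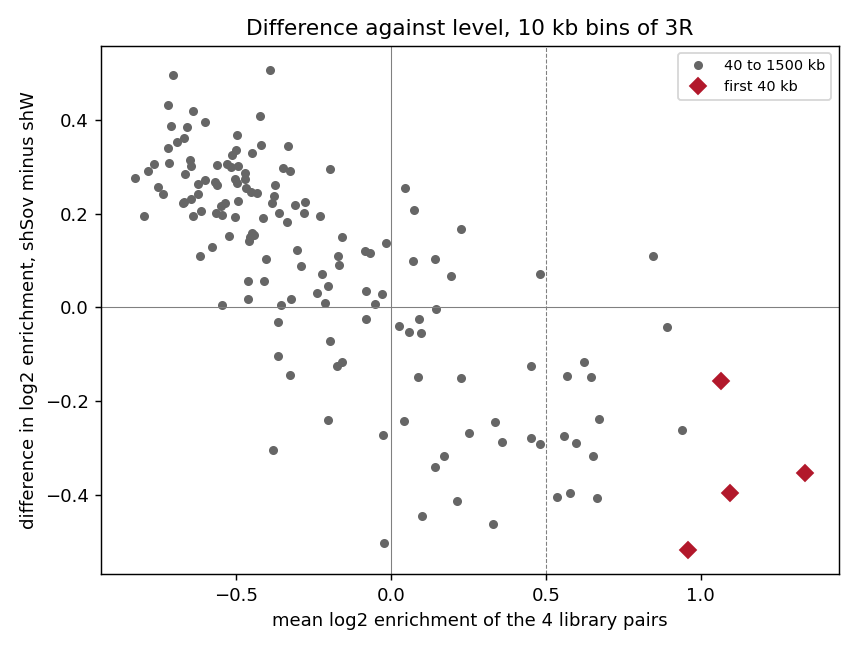
Difference in mean log2 enrichment, shSov minus shW (vertical axis), against the mean of the 4 library pairs (horizontal axis) for the 150 bins of 10 kb, with the 4 bins of the first 40 kb as red diamonds and a dashed line at a level of 0.5. Most bins under a level of 0 lie above 0 on the vertical axis, and 16 of the 17 bins with a level of 0.5 or more lie below it. Both axes share the same libraries.

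Of the 1425 windows, 5 had lower enrichment in shSov by edgeR's test adjusted over all 117126 windows, and 0 had higher enrichment. That is 0.351% of the stretch, against 0.595% of the genome called lower and 0.264% called higher, so the stretch was not richer in called windows than the genome. At an unadjusted p under 0.05 edgeR had 81 windows lower and 107 higher, or 5.68% and 7.51%, where the genome had 4.45% and 9.3%. The balance reversed under other scalings, with 131 lower and 43 higher under TMM factors, 163 and 21 with DESeq2 size factors and 117 and 60 after centring. It reversed across the genome as well, with 8014 lower and 5173 higher, 9889 and 3541, and 7132 and 6621 in the same order. DESeq2 called 9 lower and 0 higher after adjustment, against 1.54% and 0.094% of the genome windows for which it gave an adjusted p. The limma fit on the RPKM log ratios called 0 in either direction, against 113 lower and 18 higher among all 117126 windows. The count also depended on single libraries. With either shSov replicate left out, edgeR called no window of the stretch, and its calls also fell across the genome. Without shW replicate 1, edgeR called 8 lower and 5 higher, against 0.855% and 0.277% of the genome. Without shW replicate 2 it called 92 lower and 73 higher, against 5.05% and 4.7%. Both fits take the spread mainly from the shSov libraries, whose replicates differed less.

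The called windows lay in 3 places, all between the 42 kb and the 731 kb positions. Neighbouring windows from 690001 to 693000 made up 3 of the 5 and sit in the plateau that ends at 730 kb. At 691001 to 692000 the ChIP value was 9.99 and 10.6 RPKM in shSov, against 22.8 and 23.3 RPKM in shW, and the input was 7.08 and 6.95 RPKM in shSov, against 6.06 and 6.56 RPKM in shW. The ChIP values of the genotypes lay far apart while the inputs differed little. Enrichment was 0.44 and 0.55 in shSov, against 1.75 and 1.69 in shW, a log2 change of -1.34 ± 0.24 (SE, edgeR adjusted p = 0.0015). At 690001 to 691000 ChIP was 8.48 and 8.72 RPKM in shSov, against 14.3 and 18.2 RPKM in shW (log2 change -1.02 ± 0.24, SE, edgeR adjusted p = 0.030). At 692001 to 693000 it was 9.39 and 9.41 RPKM in shSov, against 19.7 and 19.9 RPKM in shW (log2 change -0.94 ± 0.24, SE, edgeR adjusted p = 0.043). The outer windows of this trio lost their call when replicate number was a block, with edgeR adjusted p-values of 0.054 at 690001 and 0.087 at 692001, and when each lysate was a block, with 0.11 and 0.15. The call at 692001 was also lost without shW replicate 1, with an edgeR adjusted p of 0.070, and the call at 690001 without shW replicate 2, with 0.083. The window at 691001 kept its call in these 4 fits.

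The second place was the window at 238001 to 239000, directly beyond 4 windows with too little input to be tested. Its ChIP values were 7.33 and 5.99 RPKM in shSov, against 18.5 and 15.7 RPKM in shW, and its input values were 6.29 and 6.07 RPKM in shSov, against 5.70 and 7.48 RPKM in shW. The log2 change was -1.22 ± 0.25 (SE, edgeR adjusted p = 0.0099), and without shW replicate 1 it was -0.90 with an edgeR adjusted p of 0.11. The run of windows enriched in shW that follows it, from 239001 to 243000, averaged 0.60 and 0.75 in shSov, against 1.5 and 1.25 in shW, and held no window enriched in shSov. The third place was the window at 629001 to 630000, which had the lowest mean enrichment in shW of the 5, at 0.65. The windows at 690001, with 0.82 and 1.29 in shW, and at 238001, with 1.54 and 0.97, also missed the threshold of 1 in a shW replicate. Enrichment there was -0.36 and -0.60 in shSov, against 0.86 and 0.44 in shW, with ChIP values of 9.99 and 9.06 RPKM in shSov, against 25.2 and 16.0 RPKM in shW (log2 change -1.19 ± 0.30, SE, edgeR adjusted p = 0.047). With TMM factors its edgeR adjusted p was 0.056. All 5 windows lost their call with limma, which called 113 windows lower across the genome, against 697 in the main edgeR fit. They also lost it when either shSov replicate was left out, and calls then fell across the genome as well. The shSov and shW values did not overlap in any of the 5 windows, which selection by a test on these same libraries favours.

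**Figure D5:**
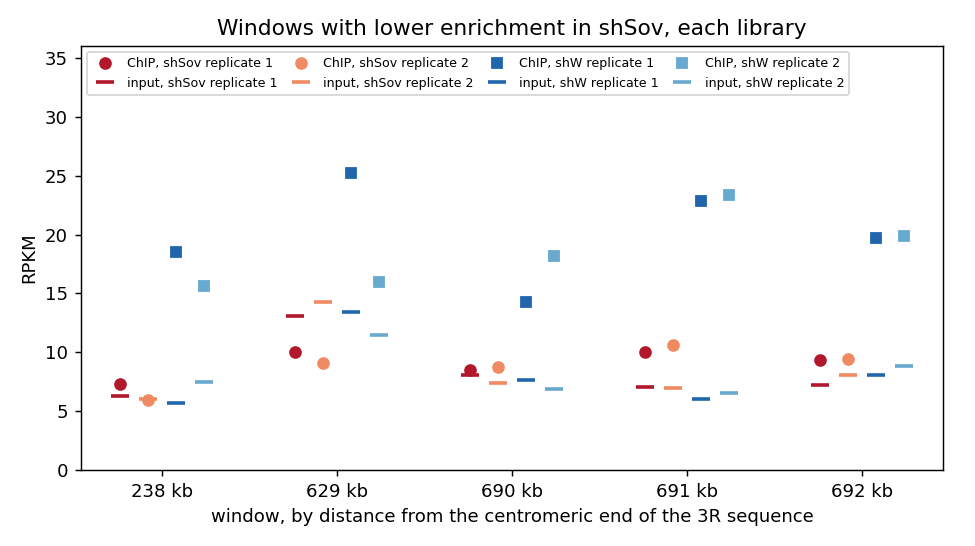
ChIP values (circles for shSov, squares for shW) and input values (horizontal dashes) in RPKM (vertical axis) for the 5 windows called lower in shSov, ordered by distance from the centromeric end (horizontal axis). In every window both shSov ChIP points lie below both shW ChIP points, and the inputs of the genotypes lie close together. The windows were called on these same libraries, which favours such a separation.

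The direction of the mean difference over the stretch depended on the scale. Over the whole stretch the shSov mean lay 0.09 above the shW mean on the log2 scale, but 0.14 below it after centring. Inside the 731 kb position the difference was -0.01, with 0.00 and 0.02 in shSov, against 0.09 and -0.05 in shW. Outside it was 0.18, and -0.05 after centring. An exact permutation test, two-sided, gave p = 0.33 over the whole stretch and outside the 731 kb position, the smallest possible, and p = 1 inside. In the edgeR fit the median log2 change was 0.13 over the windows of the stretch, against 0.19 over the genome. With TMM factors it was -0.01 over the stretch, against 0.05 over the genome, and with DESeq2 size factors it was -0.07, against -0.01.

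Set against the other arms, the stretch inside the 3R position was 1.70 and 1.68 below the 2L interior in the shSov libraries, against 2.05 and 2.09 below it in the shW libraries. Against 3L the gap was 1.86 and 1.82 in shSov, against 2.09 and 2.15 in shW. The gap was thus narrower in shSov by 0.38 for 2L and 0.28 for 3L. Each had p = 0.33 by a two-sided exact permutation test, and adjustment over both left it at 0.33. This contrast sets a patchy stretch of 3R against continuous blocks. With 1000 kb of each arm, where the 3R interior is the first 42 kb, it was 0.03 for 2L and -0.09 for 3L.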

How the data were processed

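H3K9me3 ChIP and input libraries from ovaries were analysed, with 2 libraries in each of 4 groups. Libraries whose title carries the word repeat were numbered replicate 2. The labels do not say whether a ChIP and an input of one number came from the same lysate, and this was assumed. Per the submitters' processing notes the reads were processed with Bowtie and bedtools on build dm3. Aligner settings and duplicate removal are not given in the sources used here. The deposited tables give, for each 1 kb window, the raw read count and its RPKM, which equalled the count scaled by window length and library total in every window, with no input subtracted. Totals ran from 4208693 to 27962050 reads. The median tested window of the stretch held 146 and 51 ChIP reads in shSov, against 31 and 50 in shW.

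edgeR 4.0.16 was fitted to the counts of all 8 libraries over 117126 windows, 12263 bins of 10 kb (at least 3 tested windows) and 1246 bins of 100 kb (at least 30), with library totals as offsets. The proximal part of an arm was set at 1000 kb from its centromeric end, and distal windows lie beyond it. Windows from 1000 to 1500 kb of this stretch, and of the highly enriched 3L end, lie beyond that limit. In edgeR fits, centring meant that the read totals of the distal windows replaced the library totals. This differs from subtracting a median, as was done for enrichment. The test was run on simulated data first. DESeq2 1.42.0, limma 3.58.1 (trend on mean log2 RPKM) and other settings were alternatives. Permutation tests used scipy 1.17.1. Steps needed at least 10 windows on each side. Nothing says that replicates came from separate flies, so p-values measure the spread between these libraries, which may be technical. The members and lists were chosen with earlier results of these data known. Windows named were the called ones, the 5 with the highest mean over the 4 library pairs and runs of at least 10 enriched windows, of which there were none. Shorter runs, single bins and the 42 kb segment were picked after their values were seen. No gene annotation of dm3 was used here, so windows are given by position.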

Additional observations from a re-analysis of the deposited data

How the results depend on the processing

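Thinning to equal depth and all alternatives for the first 42 kb and for the SD between bins were chosen after the data were seen. The 5 windows lower in shSov became 10 with edgeR on DESeq2 size factors, 9 with DESeq2, 0 with limma, 9 with no input filter, 39 from the ChIP counts alone and 3 with either the replicate block or a block for each lysate. Across the genome the 697 windows lower became, in the same order, 1012, 1001, 113, 1222, 3732, and 613 or 544. Leaving out 1 replicate at a time gave 0 to 92 windows lower and 0 to 73 higher. The 0 windows higher became 1 with no input filter and 24 from the ChIP alone, where the 309 windows higher across the genome became 628 and 3331. The 0 bins of 10 kb became 4 lower with TMM factors, 3 after centring on the distal autosomal arms, 17 with DESeq2, and 10 lower and 18 higher from the ChIP alone. Across the genome the 161 bins lower became 279, 257, 825 and 832 in the same order. The 147 bins higher became 1669 from the ChIP alone. Leaving out replicates gave 0 to 30 lower and 0 to 45 higher. Of the 100 kb bins DESeq2 called 1 lower, and leaving out replicates gave 0 to 3 in each direction. With the replicate block no bin was called, and the windows at 690001 and 692001 lost their call. Deviations of same-numbered libraries correlated with r = -0.07 over the windows of the stretch and -0.50 over its 10 kb bins. Same-numbered libraries thus did not deviate in the same direction, and over the 10 kb bins they tended to opposite ones. Whether samples were paired in another way was not tested. The replicate block left the mean difference over the stretch at 0.09.

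The mean difference over the stretch, 0.09, became 0.10 and 0.050 with pseudocounts of 0.1 and 5, -0.14 after centring, 0.0053 as a ratio of summed RPKM and 0.12 as a median; leaving out replicates gave 0.08 to 0.09. Inside 731 kb the -0.01 became -0.24 after centring and -0.088 as a ratio, with -0.08 to 0.06 over left-out replicates. Outside it the 0.18 became -0.050 after centring, with 0.10 to 0.26. In the first 42 kb the -0.36 became -0.59 after centring, with -0.54 to -0.18 over left-out replicates. The SD between bins, lower by 0.19 in shSov, differed by -0.28 to -0.09 over left-out replicates.

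The step at 731 kb moved to 42 kb with a pseudocount of 5, with ChIP RPKM alone, with the first 1000 kb searched and in shW replicate 2 alone. It was 42 to 744 kb over left-out replicates. The outermost 10 kb bin above the midpoint of the 2 levels ended at 1460.0 kb. The difference in step between genotypes, 338 kb, became -351 kb with a pseudocount of 5 and with 2000 kb searched and -239 kb with ChIP RPKM alone, and ran from -13 to 689 kb over left-out replicates. The contrast with 2L, 0.38, became 0.026 with 1000 kb of each arm and 0.17 with ChIP RPKM alone, and ran from 0.36 to 0.40 over left-out replicates. The contrast with 3L, 0.28, became -0.088 and -0.30, and ran from 0.25 to 0.31.

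The share of enriched windows, 2.25% in shSov and 3.86% in shW, became 7.44% and 11.02% at a threshold of 0.5, 0.211% and 1.12% at 1.5, 0.982% and 2.04% with a pseudocount of 5, and 4.91% and 11.2% after centring. From single replicates it was 2.46% to 3.93% in shSov and 4.77% to 9.26% in shW. It was tried for the whole stretch and not bin by bin. The cause of these moves was not tested.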

Other observations

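The shW replicates differed more than the shSov replicates along this stretch. Between replicates, counts per window gave a chi-square of 1.51 per degree of freedom for the shSov ChIP libraries, against 3.11 for the shW ChIP libraries, and 1.17 for the shSov inputs, against 2.31 for the shW inputs. Single libraries had 35 and 56 enriched windows in shSov, against 132 and 68 in shW. At equal depth these counts were 46 and 63 in shSov, against 133 and 73 in shW. Across the 150 bins of 10 kb, which share libraries and depth and are not independent, enrichment correlated with Pearson's r = 0.97 between the shSov replicates, against 0.94 between the shW replicates, and with r = 0.91 to 0.93 between libraries of different genotype.

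Mean input over the stretch was 10.6 and 10.5 RPKM in shSov, against 10.8 and 10.5 RPKM in shW, above the 8.46 to 8.49 RPKM of all tested windows. From 800 to 900 kb, where enrichment was higher in shSov by 0.30, input was 9.31 and 9.0 RPKM in shSov, against 8.07 and 8.31 RPKM in shW, and ChIP was 7.87 and 7.79 RPKM in shSov, against 5.13 and 5.90 RPKM in shW. The genotypes did not overlap in either. The part of input in that difference was not tested.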
